A study of Homo sapiens with 16 samples.

Results

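The interferon response genes described here are 47 human genes chosen by name, led by IRF1, out of 20046 gene symbols on the array. They hold the transcription factors of the response (IRF1, IRF2, IRF3, IRF7, IRF9, STAT2 and STAT3), its antiviral effectors, the genes of antigen processing and presentation, nuclear body, TRIM and PARP proteins, guanylate binding proteins and feedback inhibitors. Of the 47, 46 had a probe, 88 probes in all, and STAT2 had none in the annotation used. Of these 46, 40 were bright enough to be tested, reaching a log2 intensity of 6 in 4 or more of 16 arrays. IRF2, SOCS1, IFI44, IFI44L, DDX60 and PML were measured but stayed under that limit.

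Cells make interferons when they sense foreign nucleic acids. Secreted interferons bind receptors on the same or neighbouring cells, and JAK kinases then activate STAT proteins. STAT2 acts with IRF9 in a complex that binds the interferon-stimulated response element (ISRE), while interferon gamma acts through the gamma-activated site (GAS). IRF1, itself induced through a GAS, binds ISRE sequences and can switch on antiviral and antigen presentation genes without a fresh interferon signal. In several cell types retinoic acid is known to induce IRF1.

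The genes were measured in ME180, a human cervical epidermoid carcinoma line derived from a metastasis in the omentum, a single line grown in serum-containing medium. Cells received 10 µM all-trans retinoic acid (ATRA), the vitamin A metabolite that activates retinoic acid receptors, for 1, 3 or 6 h, or the DMSO vehicle, with 4 Illumina bead arrays of total RNA in each of the 4 groups. The vehicle arrays carry no treatment time, and nothing in the labels says that arrays of a group come from separate cultures, so p-values speak only of the spread among these arrays, which may be technical. Values are the authors' quantile-normalized log2 intensities, and a difference of 1 is a 2-fold change. Intensities average over the culture, so more cells expressing a gene and more RNA per cell cannot be told apart. The linear models of limma covered 12467 genes and probes, and a difference passed at an adjusted p under 0.05.

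Some arrays stood apart. The values of the 4 replicate 1 arrays were displaced by 1 row in 77.6% of the deposited rows and were moved back, and these arrays still differ in level, so results are also given with them as a block. Of the 6 h arrays, replicates 2 and 4 went against their label at some retinoid-induced genes. CYP26A1, the retinoic acid hydroxylase, stood at 12.95, 4.53, 13.13 and 5.45 in 6 h replicates 1 to 4, against 7.26, 8.58, 8.83 and 7.79 in DMSO. DHRS3, a retinal reductase induced by retinoic acid, stood at 12.33, 9.24, 12.69 and 10.27 at 6 h, against 11.14 to 11.48 in DMSO. At both genes 6 h replicates 2 and 4 lay under every DMSO array. At CYP26B1, a related hydroxylase, they stood at 6.70 and 7.12, within the DMSO range of 6.22 to 7.80. At GPRC5A, a retinoic acid-inducible receptor, replicate 2 stood at 8.75, within the DMSO range of 8.08 to 9.76, and replicate 4 at 9.77, just above it. At 1 h, replicate 2 also stood apart at CYP26A1, at 7.51, within the DMSO range, against 10.77, 11.81 and 12.14 in the other 1 h arrays. At DHRS3 this 1 h array stood at 10.73, under every DMSO array. It lay above the DMSO range at CYP26B1 (9.07) and GPRC5A (9.85). The 6 h arrays enter the spread of every comparison, so results are also given without them, a choice made after the values were seen. Of 8 squamous epithelial markers, 5 had a probe and all 5 passed the filter (KRT5 at 13.44 to 14.13, KRT14 at 11.79 to 13.26). Of 6 measured leukocyte markers 0 passed it, although LYZ reached 8.42 in 1 probe, and of 6 fibroblast and endothelial markers 3 passed it. Of these 3, 0 had an adjusted p under 0.05 against DMSO, where at most 0.57% of all genes and probes did at any time. Their log2 fold changes ran from -0.37 to 0.88 (DCN) at 6 h, so no lack of change is read from that count.

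RefSeq promoter windows (GRCh38.p14, 250 bases before to 50 after the gene's start) were given for 36 of the 47 genes. The ISRE core, GAAA repeated after a spacer of any 2 bases on either strand, was present in 20 of the 36 windows (55.6%), against 3.65% of all 27305 windows of this length. The GAS, TTCNNNGAA, was present in 8 (22.2%), against 7.88% of all windows, and the kappaB site in 11 (30.6%), against 10.8%. A pair of retinoic acid receptor half-sites with a spacer of 2 or 5 bases was in 0 of the 36, against 0.125% of all windows. A kappaB match may overlap a match of the other motifs, and a match describes letters only. The windows of IRF1 and OAS1, whose levels stood out at 3 h, of GBP1, and of ISG15, a classic ISRE gene whose level did not, are shown with ISRE and GAS matches in capitals. IRF1 lies on the minus strand at chr5:132490724-132491023, OAS1 on the plus strand at chr12:112906712-112907011, GBP1 on the minus strand at chr1:89065159-89065458 and ISG15 on the plus strand at chr1:1013247-1013546.
IRF1: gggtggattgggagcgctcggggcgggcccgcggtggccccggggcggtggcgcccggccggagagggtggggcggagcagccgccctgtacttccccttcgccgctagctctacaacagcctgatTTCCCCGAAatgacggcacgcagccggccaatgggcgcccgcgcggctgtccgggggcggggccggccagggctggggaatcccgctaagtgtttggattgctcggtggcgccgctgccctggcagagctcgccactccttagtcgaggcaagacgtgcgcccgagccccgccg
OAS1: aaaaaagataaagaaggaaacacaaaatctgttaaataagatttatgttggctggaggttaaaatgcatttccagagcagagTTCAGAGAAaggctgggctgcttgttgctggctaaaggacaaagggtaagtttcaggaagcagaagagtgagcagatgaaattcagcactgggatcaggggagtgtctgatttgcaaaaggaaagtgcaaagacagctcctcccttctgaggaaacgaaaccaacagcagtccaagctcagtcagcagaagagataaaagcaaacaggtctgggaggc
GBP1: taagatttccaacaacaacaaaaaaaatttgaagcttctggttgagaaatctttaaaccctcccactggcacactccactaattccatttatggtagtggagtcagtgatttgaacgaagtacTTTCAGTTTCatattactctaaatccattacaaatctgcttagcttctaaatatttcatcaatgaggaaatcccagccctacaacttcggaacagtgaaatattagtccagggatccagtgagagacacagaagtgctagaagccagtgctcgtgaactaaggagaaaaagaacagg
ISG15: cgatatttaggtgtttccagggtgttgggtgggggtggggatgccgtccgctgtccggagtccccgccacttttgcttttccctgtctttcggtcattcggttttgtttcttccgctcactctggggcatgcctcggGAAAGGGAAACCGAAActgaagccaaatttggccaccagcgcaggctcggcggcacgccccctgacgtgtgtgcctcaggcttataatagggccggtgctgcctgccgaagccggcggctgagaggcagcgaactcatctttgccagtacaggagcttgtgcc
The IRF1 and OAS1 windows each hold a GAS, at bases -124 to -116 and -168 to -160 from the start, and no match to these ISRE letters. The IRF1 window also holds a kappaB match, not in capitals, at -50 to -41. The OAS1 window does hold an ISRE-like pair of GAAA with 1 base between, at -17 to -9, which the search with a spacer of 2 bases does not count. Such a pair was in 7 of the 36 windows (19.4%), against 3.22% of all windows. The GBP1 window holds an ISRE core on the opposite strand at -127 to -118. The ISG15 window holds a pair of overlapping ISRE cores from -113 to -98. No window of IFIT2 or OASL was given.

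The comparisons of 1, 3 and 6 h with DMSO ask whether and when the interferon response genes follow ATRA. None of the 40 tested genes passed the threshold at any time over all 16 arrays. With limma, 0 of 40 passed at 1 h (0.57% of all genes and probes), 0 at 3 h (0.521%) and 0 at 6 h (0.0%). At an unadjusted p under 0.05 there were 3 of 40 at 1 h (3.85% of all), 5 at 3 h (7.64%) and 3 at 6 h (4.40%). The 5 at 3 h were IRF1, OAS1, IFIT2, OASL and GBP1, all with higher means than DMSO. OASL, also among the 3 at 1 h, passed the filter only through its ATRA arrays, so its place in these counts is not read as support. The median log2 fold change of the 40 was -0.14 at 1 h, 0.01 at 3 h and 0.05 at 6 h, against -0.03, -0.04 and -0.01 over all genes and probes. It was positive at 11, 20 and 24 of the 40 genes at these times, against 5604, 5407 and 6010 of 12467. At 1 h fewer of the 40 than of all genes were positive, and no test of the list was made.

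At 3 h, all 4 arrays lay above all 4 DMSO arrays, with every 3 h array at 6 or more, at IRF1, OAS1 and IFIT2, 3 of 40 genes (7.5%), against 2.81% of all genes and probes. Without the limit of 6 the share of all was 3.02%, and OASL would be counted by a difference between values under 6, which have no order. OASL entered the test only through its ATRA arrays. At 0 of 40 genes did all 3 h arrays lie below DMSO, against 2.3% of all. At 1 h the arrays separated upward at B2M and downward at IFITM2 (1.68% of all in each direction), and at 6 h at 0 genes upward (1.03%) and 0 downward (0.955%).

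**Figure D1:**
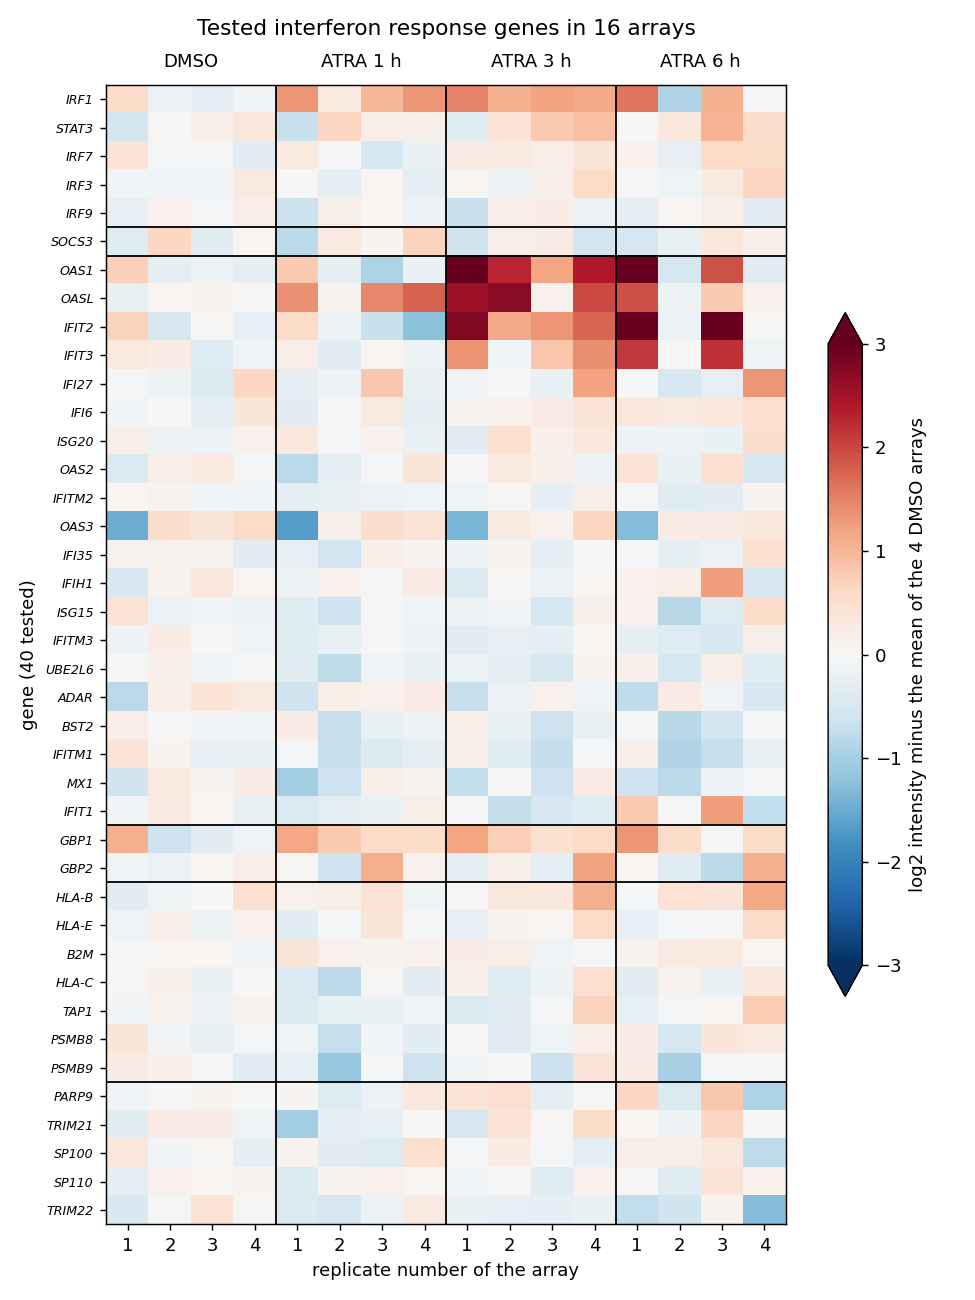
Log2 intensity minus the mean of the 4 DMSO arrays for the 40 tested interferon response genes (rows, grouped by role) in 16 arrays (columns, by group and replicate number), red above and blue below the DMSO mean, with the colour scale ending at 3 in either direction. The red block at 3 h covers OAS1, OASL (not replicate 3), IFIT2 and IFIT3 (not replicate 2) beside IRF1, and at 6 h these genes are red in replicates 1 and 3.

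IRF1, the transcription factor that heads the list, stood at 10.61, 9.90, 9.77 and 9.98 in DMSO replicates 1 to 4, at 11.40, 10.35, 11.07 and 11.40 at 1 h, at 11.56, 11.13, 11.28 and 11.19 at 3 h, and at 11.67, 9.16, 11.13 and 10.00 at 6 h. Every 3 h array lay above every DMSO array, and 3 of the 4 at 1 h did. At 1 h, replicate 2 was within the DMSO range, as this array was at CYP26A1. At 6 h replicates 1 and 3 were above the DMSO arrays, replicate 4 within them and replicate 2 below. The mean was 11.29 ± 0.19 (SD, n = 4) at 3 h, and 10.07 ± 0.37 in DMSO, so that IRF1 was 2.34-fold higher at 3 h (log2 fold change 1.22, SE 0.42, adjusted p = 0.326). At 1 h it was 11.05 ± 0.49 (0.99, adjusted p = 1.00) and at 6 h 10.49 ± 1.13 (0.42, adjusted p = 1.00). By mean the order was 3 h, 1 h, 6 h and DMSO. Neither 3 h and 1 h nor 6 h and DMSO differed by a passing test, and 6 h was not compared with 1 h.

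Alternative fits called few of the genes. Without the 6 h arrays, 2 of 40 passed at 3 h, IRF1 and OAS1 (0.938% of all genes and probes). With the replicate 1 arrays as a block, 2 passed at 3 h, OAS1 and GBP1 (3.08% of all). With both changes, IRF1 passed at 1 h (1.11% of all) and IRF1, OAS1, IFIT2 and GBP1 at 3 h, 4 of 40 (4.58% of all). Without the replicate 1 arrays GBP1 passed at 1 h (0.61% of all). The fit without 3 h replicate 3 put OASL past the threshold at 3 h (0.529% of all), which is not counted as a call, since OASL was under 6 in every DMSO array and the array left out was its only 3 h array under 6.

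The IRF1 call turned on the 6 h arrays. Without them in the fit, the SE of the 3 h difference was 0.254 and IRF1 rose at 3 h with the same 1.22 (adjusted p = 0.0474). With the replicate 1 arrays as a block as well, the SE was 0.19 and IRF1 rose at both 1 h (adjusted p = 0.0263) and 3 h (adjusted p = 0.00427). The block alone left the 3 h adjusted p at 0.0718, and the replicate number as a block at 0.0572. Between the replicate 1 arrays alone the difference at 3 h was 0.95, and between the means of replicates 2 to 4 it was 1.32.

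The other transcription factors differed less. STAT3, which carries IL-6 family signals, stood at 9.82, 10.59, 10.96 and 11.08 at 3 h, against 9.60, 10.20, 10.38 and 10.51 in DMSO. The groups overlapped (log2 fold change 0.44, SE 0.33, adjusted p = 0.994). Another STAT3 probe held 8.90, 9.07, 9.30 and 9.53 at 3 h, against 8.23, 8.62, 8.35 and 8.49 in DMSO, with no overlap, and the remaining probe had a mean difference of 0.59. At 6 h STAT3 had the largest difference of these factors, 0.47. IRF7, the factor that amplifies type I interferon production, differed from DMSO by 0.27 at 3 h and 0.26 at 6 h. IRF3, which responds first to sensed nucleic acids, differed by 0.17 and 0.18, and IRF9, the partner of STAT2, by -0.10 and -0.09. IRF2, a competitor of IRF1 at its sites, reached at most 5.91 in any array.

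**Figure D2:**
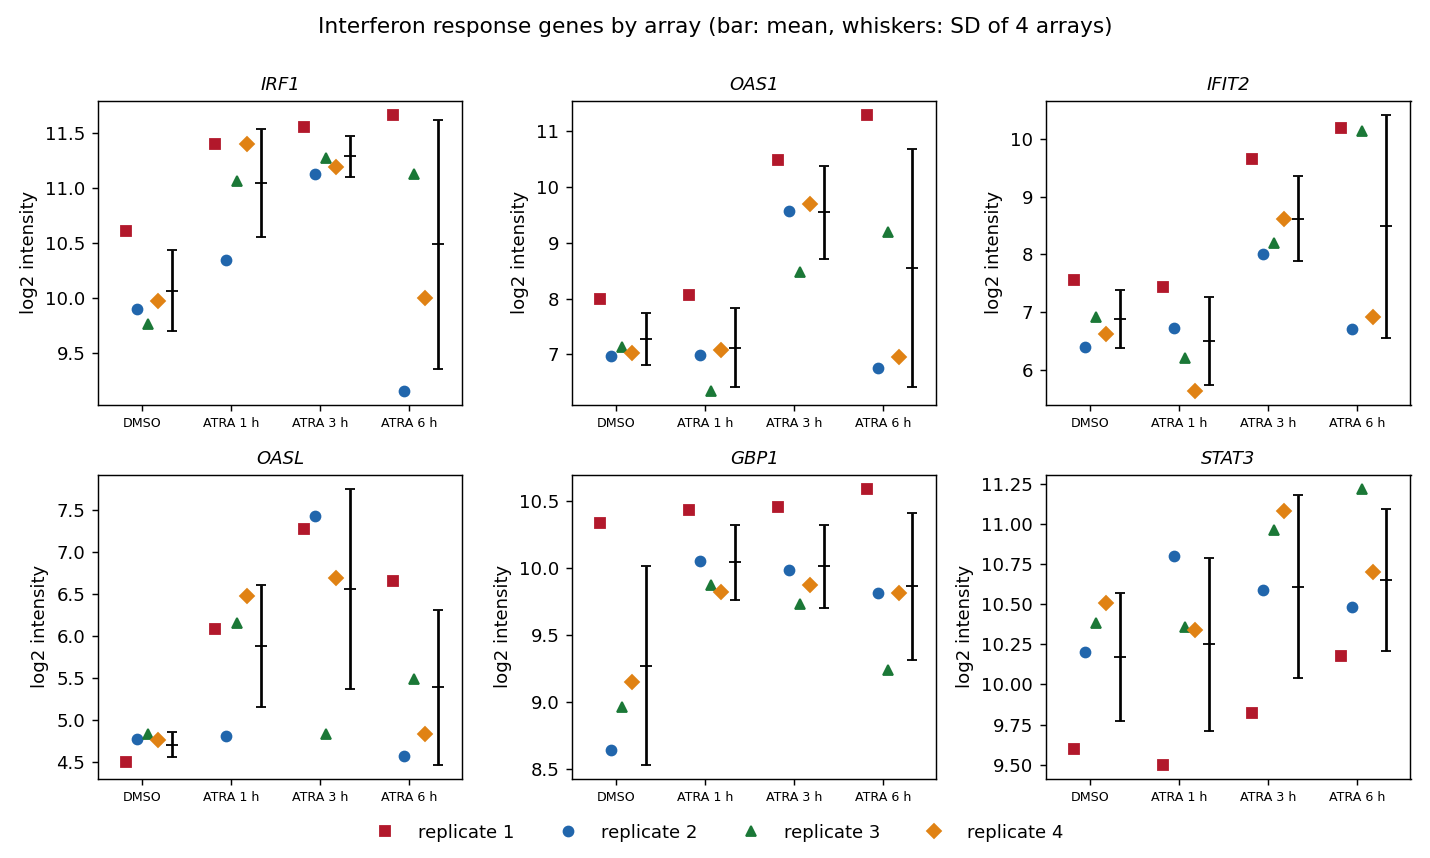
Log2 intensity of 6 interferon response genes in each of 16 arrays (symbols and colours give the replicate number), with the mean (bar) and SD (whiskers) of the 4 arrays of each group. The IRF1, OAS1 and IFIT2 arrays at 3 h lie above all DMSO arrays, and at 6 h the OAS1 and IFIT2 arrays fall into a high pair and a low pair.

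Among the 20 tested antiviral effectors, the largest differences at 3 h were at OAS1, OASL, IFIT2 and IFIT3. Of these IFIT3 overlapped DMSO, and the related IFIT1 had a lower mean than DMSO. OAS1 makes the short oligoadenylates that activate RNase L. It stood at 10.48, 9.57, 8.47 and 9.69 at 3 h, against 7.99, 6.98, 7.13 and 7.02 in DMSO. The lowest 3 h array was above the highest DMSO array. The mean was 9.55 ± 0.83 at 3 h, against 7.28 ± 0.47 in DMSO (SD, n = 4), 4.83-fold higher (log2 fold change 2.27, SE 0.78, adjusted p = 0.320). At 1 h it stood at 8.06, 6.99, 6.35 and 7.08, a log2 fold change of -0.16, and all 4 arrays at 3 h exceeded all 4 at 1 h. A second OAS1 probe gave the same picture, with a mean difference of 2.57 at 3 h and no overlap with DMSO.

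OAS1 rose at 3 h in 3 of the alternative fits. The adjusted p was 0.0365 with the replicate 1 arrays as a block, 0.0293 without the 6 h arrays and 0.000713 with both changes. At 6 h OAS1 was split, at 11.30, 6.75, 9.20 and 6.95 in replicates 1 to 4, with replicates 1 and 3 above every DMSO array and replicates 2 and 4 below every one (log2 fold change 1.27, adjusted p = 1.00). OAS2 and OAS3, the other oligoadenylate synthetases, differed from DMSO by 0.07 and -0.08 at 3 h. At OAS3 the replicate 1 array was the lowest of each group.

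OASL, a synthetase-like protein that enhances RIG-I signalling, was under 6 in every DMSO array (4.50, 4.77, 4.83 and 4.76). It stood at 7.27, 7.43, 4.84 and 6.69 at 3 h and at 6.08, 4.81, 6.15 and 6.48 at 1 h. At 3 h replicates 1, 2 and 4 were well above the limit of 6 and replicate 3 was not, and no order is read between 4.84 and the DMSO values. With the DMSO arrays put at 6 and 3 h replicate 3 left at 4.84, the 3 h mean of OASL was 1.47-fold above DMSO. No rise is read from this, since OASL entered the test only through its ATRA arrays. The fitted log2 fold change of 1.84 (SE 0.54, adjusted p = 0.187) is measured against arrays under 6. It was 2.41 without 3 h replicate 3 (adjusted p = 0.0312), the only 3 h array under 6, and no rise is read from that fit. At 6 h OASL had 6.65, 4.57, 5.49 and 4.84.

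IFIT2 binds foreign RNA and blocks its translation together with IFIT1 and IFIT3. It stood at 9.66, 8.00, 8.19 and 8.61 at 3 h, against 7.56, 6.40, 6.91 and 6.63 in DMSO, with no overlap. The mean was 8.62 ± 0.74 at 3 h, against 6.88 ± 0.50 in DMSO (SD, n = 4), 3.34-fold higher (log2 fold change 1.74, SE 0.72, adjusted p = 0.511). At 1 h it stood at 7.43, 6.72, 6.21 and 5.64 (log2 fold change -0.38). At 6 h it stood at 10.19, 6.71, 10.13 and 6.92, again with replicates 1 and 3 above DMSO, and with replicates 2 and 4 within its range. IFIT2 rose at 3 h only in the fit without the 6 h arrays and with the replicate 1 block (adjusted p = 0.00165), and without the 6 h arrays alone the adjusted p was 0.0981.

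IFIT3 and IFIT1, named after their values were seen, did not separate from DMSO at 3 h as IFIT2 did. IFIT3 stood at 7.32, 5.85, 6.80 and 7.36 at 3 h, against 6.26, 6.19, 5.58 and 5.86 in DMSO (log2 fold change 0.86, adjusted p = 0.829), and at 8.09, 6.00, 8.16 and 5.85 at 6 h. A second passing IFIT3 probe had a mean difference of only 0.32 at 3 h, with overlap. IFIT1 stood at 8.38, 7.66, 7.90 and 8.00 at 3 h, against 8.31, 8.62, 8.45 and 8.16 in DMSO, a log2 fold change of -0.40, the lowest of the 40 genes at that time. At 6 h IFIT1 stood at 9.16, 8.37, 9.65 and 7.65. By the probe tested, 6 h replicates 1 and 3 lay above the DMSO range at IFIT1 and IFIT3, as at IFIT2.

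The remaining antiviral effectors stayed close to the vehicle level. ISG15, a ubiquitin-like modifier, had a log2 fold change of -0.28, -0.15 and -0.13 at 1, 3 and 6 h, and MX1, a GTPase that traps viral components, -0.33, -0.28 and -0.41. IFITM3, a membrane protein that blocks virus entry, had -0.20, -0.20 and -0.25. Its relative IFITM2 stood at 12.11, 12.15, 12.21 and 12.26 at 1 h, against 12.45, 12.49, 12.29 and 12.30 in DMSO, so that all 1 h arrays were below all DMSO arrays by a mean of only 0.20 (adjusted p = 1.00). IFI44, IFI44L and DDX60 reached at most 6.03, 5.94 and 6.33 in any array.

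**Figure D3:**
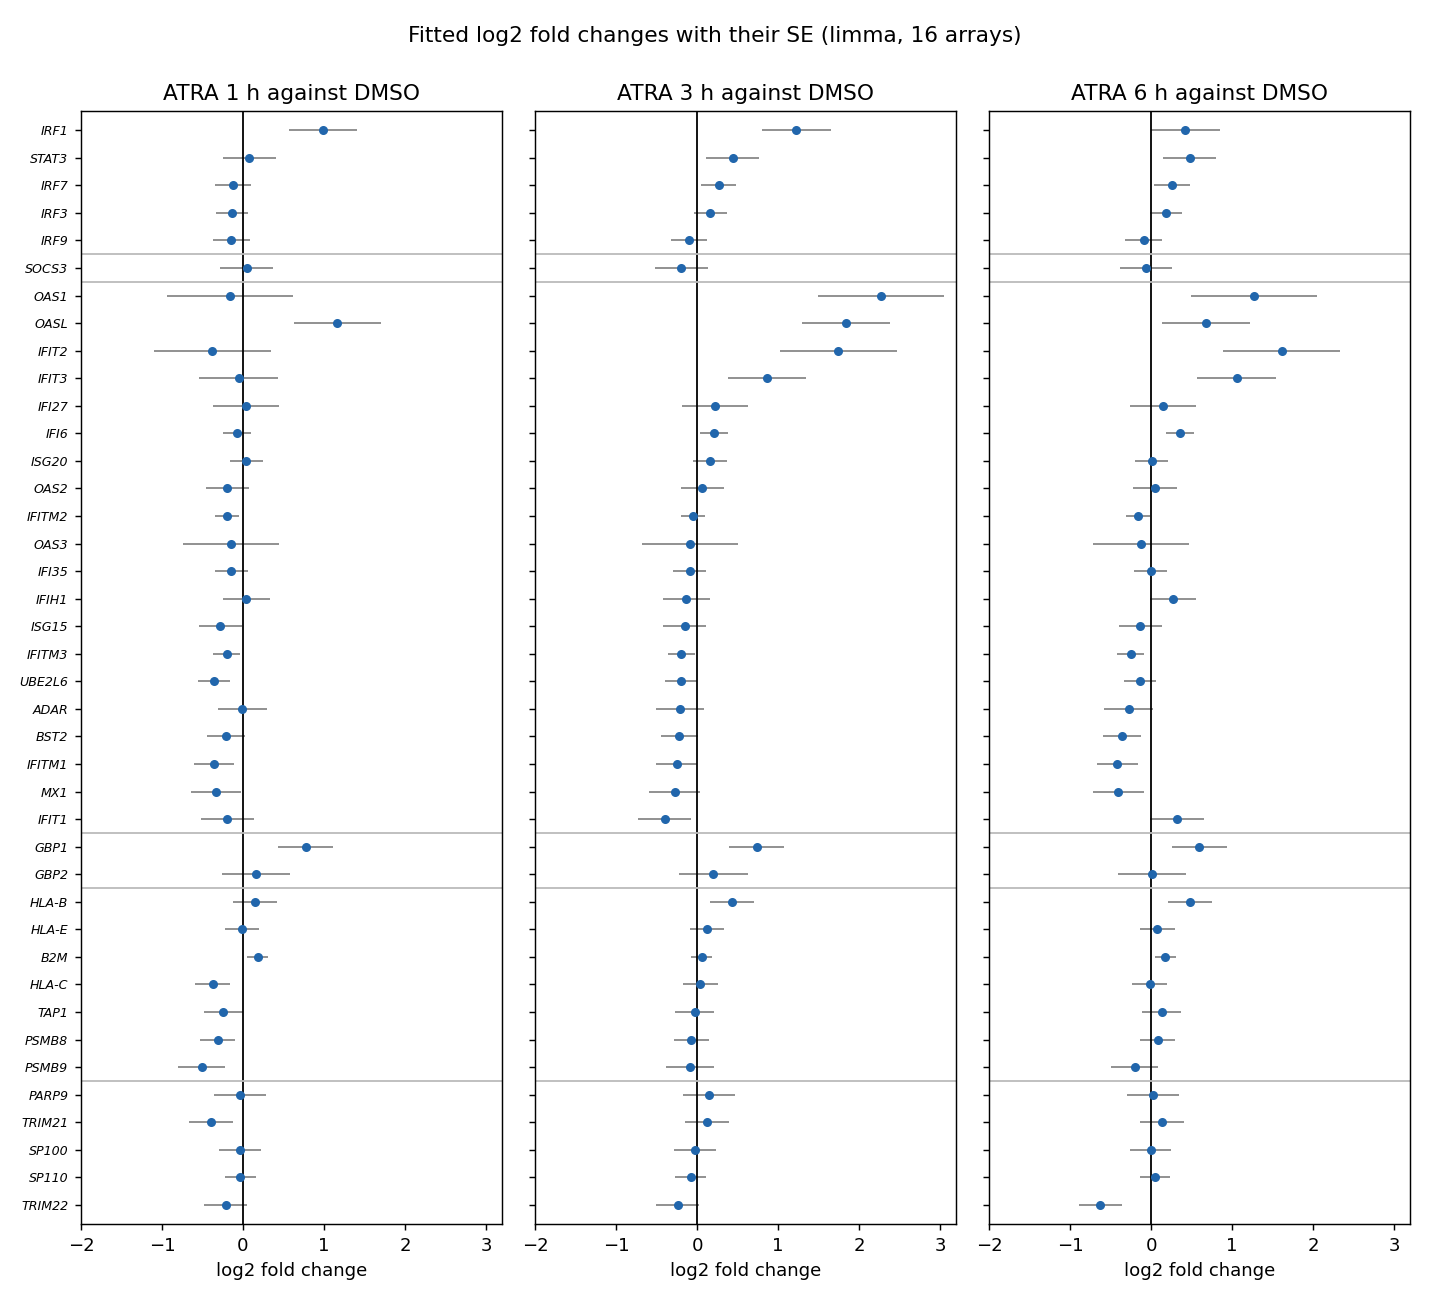
Fitted log2 fold change of each tested interferon response gene at 1, 3 and 6 h against DMSO (points), with its SE (lines), from limma over 16 arrays. IRF1, OAS1, OASL, IFIT2, IFIT3 and GBP1 lie to the right at 3 h, while most other genes lie within 0.5 of 0.

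GBP1, a guanylate binding protein that attacks pathogen-containing vacuoles, stood at 10.33, 8.64, 8.96 and 9.15 in DMSO, at 10.43, 10.05, 9.87 and 9.82 at 1 h, at 10.45, 9.98, 9.73 and 9.87 at 3 h, and at 10.59, 9.81, 9.24 and 9.81 at 6 h. Replicate 1 was high in all groups, and in replicates 2 to 4 every ATRA array exceeded the 3 DMSO arrays. The log2 fold change was 0.77 at 1 h (SE 0.34, adjusted p = 1.00), 0.74 at 3 h (adjusted p = 0.622) and 0.59 at 6 h (adjusted p = 1.00). Within the replicate 1 arrays the differences at 1 and 3 h were 0.11 and 0.12, and between the means of replicates 2 to 4 they were 1.00 and 0.94. GBP1 rose at 3 h with the replicate 1 arrays as a block (adjusted p = 0.0463) and at 1 h without those arrays (adjusted p = 0.0466). A second GBP1 probe had all 4 arrays above DMSO at 1 h (mean difference 0.82) and at 3 h (0.93). GBP2, its relative, differed by 0.17, 0.20 and 0.01 at 1, 3 and 6 h.

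Antigen processing and presentation genes showed small differences, and 0 of the 7 passed in any fit. Of all genes and probes 4.58% passed in the fit that called most, so 0 among so few genes is near the share of all. B2M, the light chain of MHC class I, stood at 13.65, 13.43, 13.37 and 13.43 at 1 h, against 13.25, 13.36, 13.36 and 13.19 in DMSO, a separation of the groups with a mean difference of 0.18 (adjusted p = 1.00). A second passing B2M probe overlapped at 1 h, with 13.26, 12.48, 12.26 and 12.37, against 12.95, 12.34, 12.14 and 12.13 in DMSO. PSMB9, an immunoproteasome subunit, had the largest difference at 1 h, with 9.06, 8.19, 9.28 and 8.69, against 9.54, 9.46, 9.28 and 8.98 in DMSO (log2 fold change -0.51, adjusted p = 1.00). HLA-B, an MHC class I heavy chain, had the largest at 3 h and 6 h, 0.44 and 0.48 (adjusted p = 0.909 and 1.00). TAP1, the peptide transporter, and PSMB8 differed by -0.03 and -0.07 at 3 h. HLA genes resemble each other in sequence, so their probes may share signal.

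Of the nuclear body, TRIM and PARP genes, 0 of 5 tested passed in any fit, against at most 4.58% of all genes and probes. For so few genes a count of 0 is near that share. TRIM22, an antiviral ubiquitin ligase, stood at 5.62, 5.74, 6.46 and 5.05 at 6 h, against 5.90, 6.32, 6.79 and 6.38 in DMSO. The groups overlapped near the limit of 6, with a log2 fold change of -0.63 (adjusted p = 1.00). TRIM21, an intracellular antibody receptor, had -0.39 at 1 h, and PARP9, an ADP-ribosyltransferase, 0.15 at 3 h. At 6 h PARP9 stood at 10.05, 9.00, 10.23 and 8.50, against 9.32 to 9.52 in DMSO, with replicates 1 and 3 above the vehicle range and replicates 2 and 4 below it. PML, the scaffold of nuclear bodies and fusion partner of RARA in acute promyelocytic leukaemia, reached at most 5.85 in any of its 7 probes.

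SOCS3, the inhibitor of cytokine receptors and JAK kinases, was measured by probes that disagreed. The probe that passed the filter had a log2 fold change of 0.05 at 1 h, -0.20 at 3 h and -0.06 at 6 h. A dimmer probe, which failed the filter and was not tested, stood at 6.63, 6.68, 5.85 and 6.76 at 1 h, against 4.82, 5.29, 4.55 and 4.57 in DMSO, and at 4.72 to 5.06 at 3 h. With the DMSO arrays put at 6 and 1 h replicate 3 left at 5.85, its 1 h mean of 6.48 ± 0.42 was 1.39-fold above them. This probe is named after its values were seen. SOCS1, the other inhibitor, reached at most 5.89.

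Set against 1 h, the 3 h arrays test whether genes move between these times. OAS1 and IFIT2 lay above all 1 h arrays in all 3 h arrays, 2 of 40 genes (1.84% of all genes and probes), and 0 lay below (1.37%). With limma 0 of 40 passed (0.184% of all), and 2 of 40 had an unadjusted p under 0.05 (4.8% of all), near the share of all. Without the 6 h arrays OAS1 was higher at 3 h than at 1 h by a passing test, 1 of 40 genes (0.289% of all), and with the replicate 1 block as well OAS1 and IFIT2 were, 2 of 40 (1.72% of all). IRF1 differed between 3 h and 1 h by 0.24 (SE 0.42). At 6 h against 3 h 0 of 40 passed (0.0% of all). An unadjusted p under 0.05 was found at 2 of 40, IFIT1 and OASL (3.4% of all). OASL entered the test only through its ATRA arrays, so its place in this count is not read as support. The groups separated at 0 genes upward (0.594% of all) and 0 downward (0.57%).

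The 6 h arrays were the most spread of the groups at these genes, with a median SD over the 40 of 0.444, against 0.269 in DMSO. The median over all genes and probes was 0.415 at 6 h, against 0.318 in DMSO. At 8 of the 40 genes, 6 h replicates 1 and 3 lay above the DMSO range and replicates 2 and 4 did not, the division seen at CYP26A1 and DHRS3, against 3.56% of all genes and probes. By the probe tested they were IRF1, IFIT1, IFIT2, IFIT3, OAS1, OAS2, UBE2L6 and PARP9. At another passing probe of OAS2, UBE2L6 and IFIT3, 6 h replicate 3 was within the DMSO range, at 7.11, 8.20 and 6.35. Second passing probes of OAS1 and PARP9 kept the division. Other divisions were present too: at 11 genes, IRF3, ISG15 and HLA-B among them, only replicate 4 lay above the range (14.0% of all), at IRF7 and STAT3 replicates 3 and 4 did (2.43% of all), and at 13 no array did (41.2% of all). Replicate 4 lay above the DMSO range at 14 of the 40 genes and replicate 1 at 11. STAT4, a pathway gene outside the list, stood at 10.17, 6.40, 10.12 and 6.50 at 6 h, against 6.65, 7.19, 7.20 and 7.13 in DMSO. What the 6 h division contributes to the comparisons with 6 h was not tested, and no group was formed from part of these arrays.

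**Figure D4:**
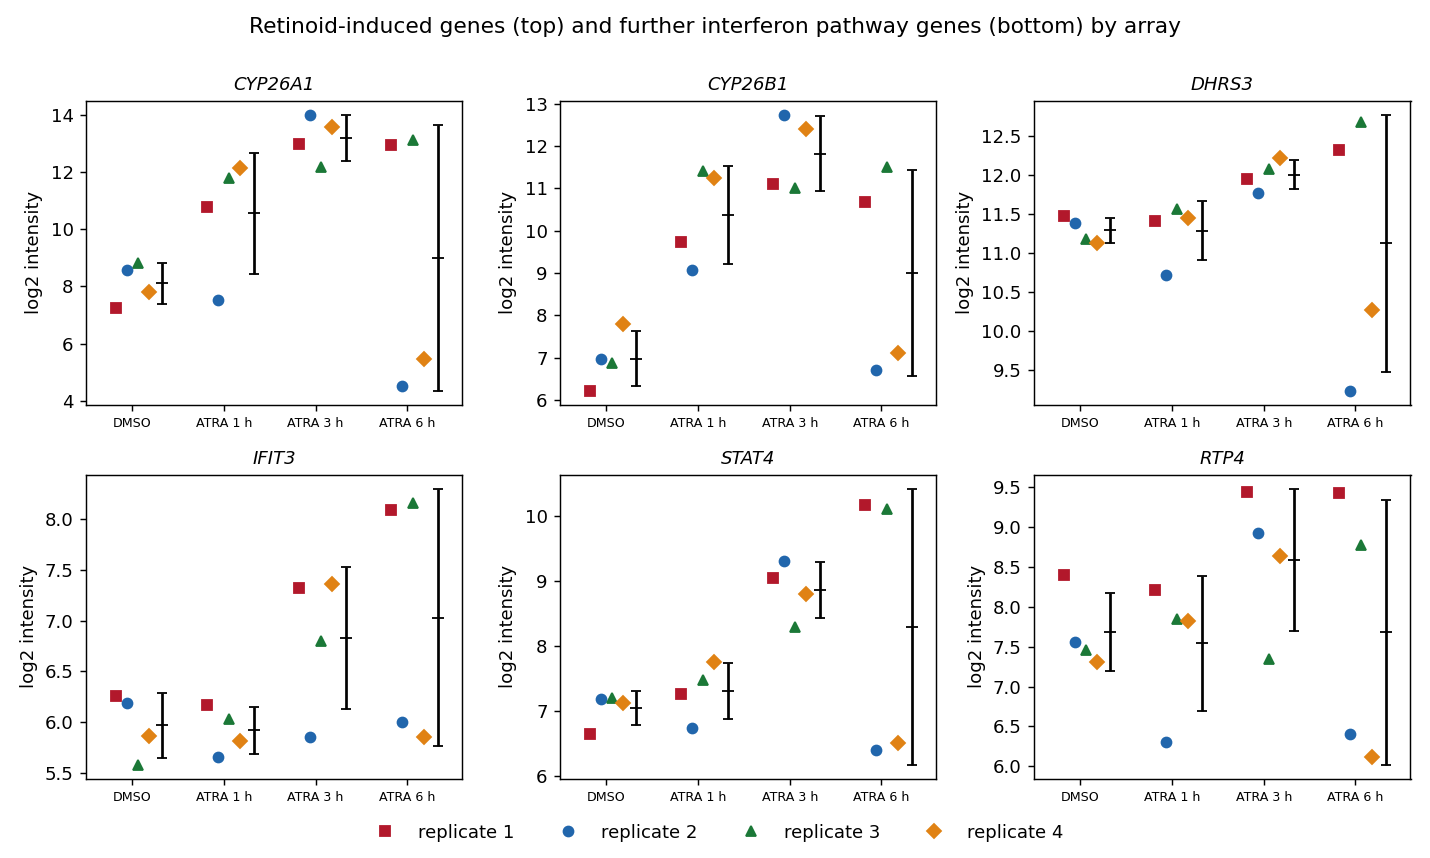
Log2 intensity of retinoid-induced genes (top row) and of IFIT3, STAT4 and RTP4 (bottom row) in each of 16 arrays, with symbols by replicate number and the mean (bar) and SD (whiskers) of 4 arrays. At 6 h replicates 1 and 3 are high and replicates 2 and 4 low in all 6 panels, for CYP26A1 at 12.95 and 13.13 beside 4.53 and 5.45.

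Other genes of the pathway gave the setting for the list. Of 9 interferon genes with a probe, 8 stayed under the filter, with 5.04 as their highest value in any array, including IFNB1 at up to 4.52 and IFNG at up to 4.53. The only tested one, IFNE, an epithelial type I interferon, differed by -0.23 at 3 h. Over all 16 arrays 0 of 17 tested receptor and JAK-STAT genes, 0 of 9 nucleic acid sensing genes, 0 of 3 other IRF genes, 0 of 20 other interferon-stimulated genes and 0 of 9 other antigen presentation genes passed at any time. Of all genes and probes 0.57%, 0.521% and 0.0% passed at 1, 3 and 6 h, so counts of 0 in these lists are near the share of all. At an unadjusted p under 0.05 the counts at 3 h were 2, 1, 0, 0 and 0 in these lists, against 7.64% of all.

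In each of these lists 1 gene differed most at 3 h. STAT4, which transmits IL-12 signals, stood at 9.05, 9.31, 8.29 and 8.81, above every DMSO array, with a log2 fold change of 1.82 (adjusted p = 0.443). TICAM1, the adaptor of TLR3, differed by 0.76 (adjusted p = 0.474), RTP4, a chaperone of receptors at the cell surface, by 0.91, the IRF2 partner IRF2BP2 by 0.57 and HLA-F, a class I relative, by 0.42. The chemokines CXCL9, CXCL10 and CXCL11 and the antiviral enzyme RSAD2, familiar targets of interferon, did not exceed 4.89, 5.02, 5.07 and 5.23 in any array.

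Genes with and without a match to the ISRE letters in the promoter window had similar medians at 3 h. The 16 tested genes with an ISRE core in the window had a median log2 fold change of -0.06 at 3 h (from -0.40 at IFIT1 to 0.86 at IFIT3). The 15 tested genes with a window but no such match had -0.07 (from -0.21 at ADAR to 2.27 at OAS1, whose window has the ISRE-like pair with the shorter spacer). The 7 tested genes with a GAS, IRF1 and OAS1 among them, had -0.09 (from -0.25 at IFITM1 to 2.27 at OAS1). At 1 h the median was -0.17 for genes with an ISRE core and -0.04 for genes without, and at 6 h 0.13 and -0.01. These differences were not tested. IFIT2 and OASL, for which no window was given, are in none of these groups.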

How the data were processed

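Total RNA of ME180 cells was labelled with biotin and hybridised to Illumina bead arrays, per the labels' protocols. The deposited log2 values are the authors' quantile-normalized values, 1 per probe and array for 47230 probes (4.23 to 14.73). Per the submitters' processing notes limma was used, for a step they do not name. Sources used here leave background correction and log base unstated, and base 2 is assumed. In the order of the non-normalized table, from row 10570 on, replicate 1 values stood 1 row low and were moved up (r with the other arrays 0.325 as deposited and 0.979 moved). That table's 32 value columns match no sample label and were not used.

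The platform annotation gave 1 symbol for 30113 probes, several for 8 and listed none for 17109; a RefSeq gene table changed 0 symbols. Probes reaching log2 6 in 4 of 16 arrays were kept, and a gene with several used its brightest probe by mean. Of 13 tested genes with several passing probes, 10 had the same sign at 3 h in all of them. One model with 4 groups was fitted with limma 3.58.1 in R 4.3.3 (lmFit, eBayes, two-sided, Benjamini-Hochberg over 12467 genes and probes, 5 contrasts) and tested on simulated data. The planned analysis was from non-normalized values, and the deposited ones replaced them. The number of arrays limits the precision. Replicate numbers were not taken as pairs in the main fit. Deviations of same-numbered arrays correlated at 0.794 to 0.900 over the 6 pairs of replicate 1 arrays. Over the 18 pairs of replicates 2 to 4 they correlated at -0.135 to 0.701, 12 of them over 0.1.

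Genes named are IRF1, those whose arrays separate from DMSO, those passing, and in each role the brightest in DMSO and the largest difference at each time. Further genes of a role (among them IFIT1, IFIT3, ISG15, MX1, the other IRF and OAS genes, GBP2, TAP1 and PSMB8) and second probes were named after their values were seen. The genes and lists were chosen with earlier results of these data known. Promoter sequences are RefSeq's, GRCh38.p14, and no other genome was used.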

Additional observations from a re-analysis of the deposited data

Results flagged for a closer look

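In 15 of the 160 groups of 4 arrays checked (40 genes in 4 groups), 1 array lay far from the other 3, with its gap to the nearest above 0.829 of the group's range. Chance gives about 1 in 20 groups. In 7 of the 15 the distant array was a replicate 1 array: ISG15 in DMSO at 10.26 (nearest 9.74), OAS1 in DMSO at 7.99 (nearest 7.13), OAS3 in DMSO at 7.26 (nearest 9.09) and at 6 h at 7.42 (nearest 8.95), SP110 in DMSO at 8.32 (nearest 8.68) and at 1 h at 8.21 (nearest 8.67), and ADAR at 1 h at 10.66 (nearest 11.40). In 6 it was a replicate 4 array: IRF3 in DMSO at 9.54 (nearest 9.18), IFI35 in DMSO at 9.07 (nearest 9.50), IFI27 at 3 h at 9.83 (nearest 8.63), IFITM3 at 3 h at 12.98 (nearest 12.68), ISG20 at 6 h at 6.93 (nearest 6.26) and SP100 at 6 h at 6.16 (nearest 7.09). The other 2 were IFI27 in 1 h replicate 3 at 9.43 (nearest 8.47) and PSMB8 in 6 h replicate 2 at 10.13 (nearest 10.89). At OAS1, whose 3 h arrays all lay above DMSO, the distant DMSO array is the highest of its group.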

How the results depend on the processing

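There were 29 other settings (27 for comparisons with 6 h), and OASL did not pass the stricter filter on dim probes. In the settings run, the log2 fold changes of IRF1 at 1, 3 and 6 h kept their direction. So did those of IFIT2, OAS1 and OASL at 3 h, and of IFITM2 and B2M at 1 h. The median over the tested genes did not keep its direction: at 3 h it was -0.029 without or with a stricter filter on dim probes and -0.087 without 3 h replicate 4, and at 6 h -0.005 and -0.003 without 6 h replicate 3 or 4. At 1 h it lay between -0.195 and -0.082. The count of interferon response genes passing, 0 at every comparison over all arrays, moved as follows. At 1 h against DMSO it was 1 without the replicate 1 arrays and 1 without the 6 h arrays and with replicate 1 blocked. At 3 h it was 2 with replicate 1 blocked, 2 without the 6 h arrays, 4 with both, and between 0 and 1 when single arrays were left out (1 without 3 h replicate 3, which is OASL, under 6 in every DMSO array). At 3 h against 1 h it was 1 without the 6 h arrays and 2 with replicate 1 blocked as well. At 6 h against DMSO and against 3 h it stayed 0 in every setting run. Dropping the 6 h arrays was chosen after the data were seen. IRF1 passed at 1 h (0.988, adjusted p = 0.0263) without the 6 h arrays and with that block, and at 3 h (1.224) without the 6 h arrays alone and with the block. Leaving out single arrays, its log2 fold change lay between 0.873 and 1.221 at 1 h, 1.126 and 1.406 at 3 h, and 0.028 and 0.864 at 6 h, and 0 of these passed. When replicate number served as the block, 0 genes of the list passed in any comparison, while 341 of all genes and probes (2.74%) passed at 3 h. The main fit did not take replicate numbers as pairs. Same-numbered arrays correlated closely for replicate 1 and unevenly for replicates 2 to 4, and 6 of 16 arrays correlated best with an array of their own number. Stricter, absent or other filters on dim probes, other probe rules, cyclic loess, an intensity trend, rows as deposited and fits of only the 2 groups compared left the count at 0. Normexp correction from the non-normalized table was not run because its columns match no label, and a slide or scan block was not run because none is given. The number of arrays limits the precision: at IRF1 a 3 h difference of 1.22 had an SE of 0.42 over all arrays, and 0.254 without the 6 h arrays.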
